A study of Drosophila melanogaster with 6 samples.

Results

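The odorant-binding protein (Obp) genes of *Drosophila melanogaster* were taken from the authors' deposited table as all genes whose symbol is Obp followed by a digit. This gave 43 of 14862 genes. The series compares gene expression of oocytes with and without suppressed insulin signalling. It holds 6 RNA samples of stage 14 oocytes, the last stage before the egg is laid, each a pool of 200 oocytes from flies kept on standard food with yeast paste. GFP was expressed in the 3 control samples, and the other 3 expressed InR-DN, a form of the insulin receptor InR that the submitters use to suppress insulin signalling. The labels do not give the promoter or driver behind either transgene, the age of the flies, or whether a group's pools stem from separate crosses.

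Odorant-binding proteins are small, secreted proteins with a hydrophobic pocket, held together by disulphide bonds between conserved cysteines. In the antenna and the taste bristles, support cells secrete them into the fluid around the sensory neurons, where they carry odorants and other small hydrophobic molecules. Many members are also made outside the sense organs, among them genes whose products are found in seminal fluid. In the fly genome they lie in clusters of neighbouring genes, and the number in a symbol gives the cytological division of the gene.

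Sample by sample values were not analysed here, so no spread between replicates is given and the depth behind each value is unknown. The authors' deposited table gives 1 log2 fold change per gene, an average log2 CPM (read counts scaled by sequencing depth), a likelihood ratio, and p-values before and after adjustment. A gene was called when the adjusted p of the authors' likelihood ratio test was under 0.05. An implied standard error (SE) was computed as the size of the log2 fold change divided by the square root of the likelihood ratio, and an implied 95% interval from it. SE means this implied value throughout. It comes from the authors' model, not from a spread seen among samples, and says little of how precise the largest fold changes are. Which group forms the numerator is not in the header. Fold changes are therefore positive or negative as deposited, and neither sign is tied to a group. The title of the table calls the samples embryos, whereas the labels call them oocytes, and which libraries enter the average is not stated. Averages and levels are therefore given as deposited and need not be those of the 6 samples alone. The 17 genes chosen as markers of the oocyte and egg chamber were listed at high averages, from 3.11 to 12.31 with a median of 7.85. Because the libraries behind an average are not stated, these levels are no check of the labels. By the authors' likelihood ratio test none of the 17 was called, and none had an unadjusted p under 0.05. Over all genes with a likelihood ratio above 0, the shares were 5.10% and 11.4%. Few of 17 genes would thus be counted in any case.

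All calls in the family lay in the Obp56 and Obp57 clusters, and all were negative. In the authors' deposited table, 29 of the 43 members had a likelihood ratio above 0, and these are called tested members. Of the 29, 5 were called: Obp56a, Obp56d, Obp56e, Obp57a and Obp57c. No member was called with a positive fold change, and none with a positive fold change had an unadjusted p under 0.05. Among all 13080 tested genes of the authors' deposited table, 5.10% were called, 2.48% with a negative and 2.61% with a positive fold change, so the 17.2% called among the tested members was above the share over all genes. An unadjusted p under 0.05 was listed for 6 of the 29 tested members, against 11.4% of all tested genes. The median log2 fold change of the tested members was -0.26, against 0.03 over all tested genes, with 17 negative and 12 positive. The size of the change, regardless of sign, had a median of 1.69 on the log2 scale among tested members and 0.21 among all tested genes. These medians are not of like genes, as 23 of the 29 tested members had an average log2 CPM below 0. At the lowest averages many genes repeat a change near 1.69, as given below.

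**Figure D1:**
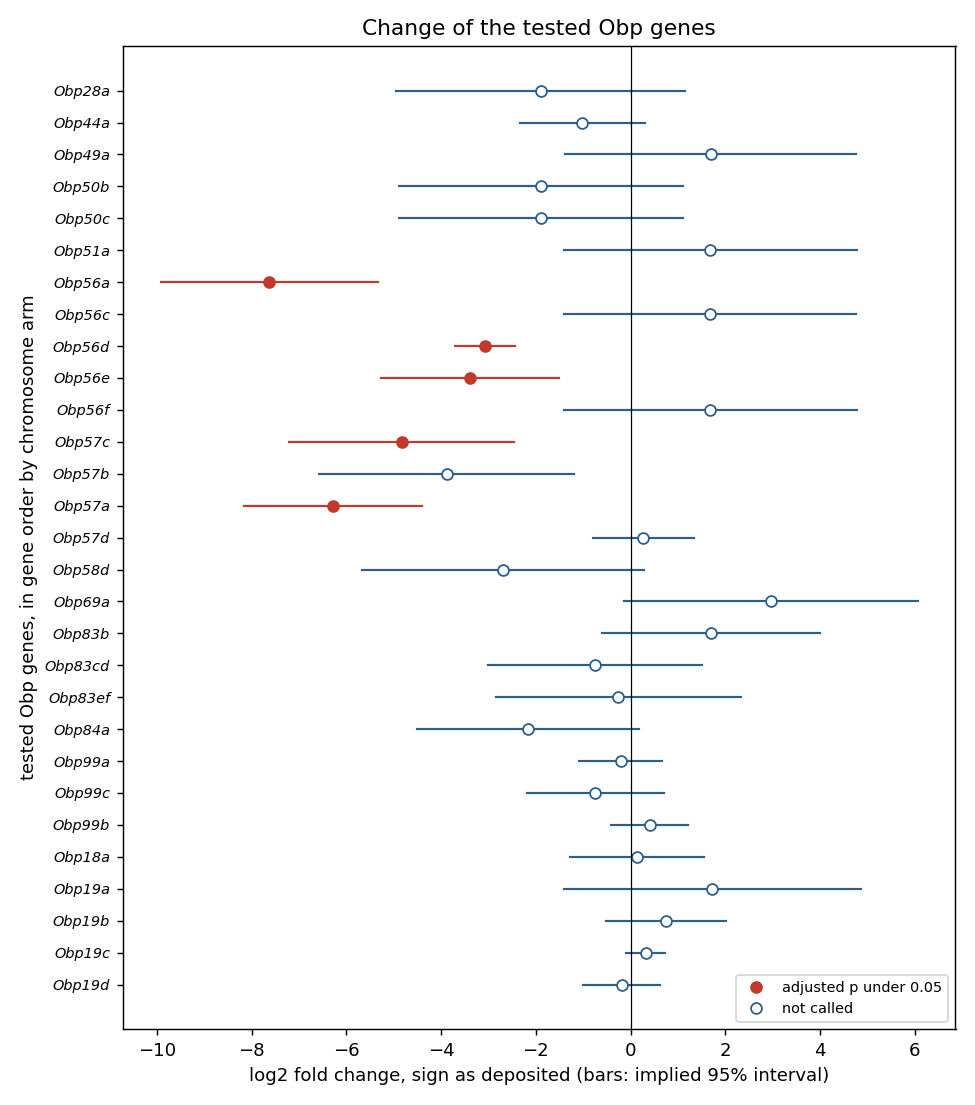
Log2 fold change (horizontal axis, sign as deposited) of the 29 tested Obp genes, in gene order by chromosome arm; bars are implied 95% intervals, filled red points have an adjusted p under 0.05 and open blue points do not. The 5 called genes lie to the left of 0, and among the other genes only the interval of Obp57b lies wholly on that side.

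The family was mostly listed at low averages. The median average log2 CPM over the 43 members was -3.18, against 3.81 over all tested genes, and the lowest average of any gene in the authors' deposited table was -3.80. Of the 29 tested members, 23 had an average log2 CPM below 0, of which 3 were called, and 6 had an average of 0 or more, of which 2 were called. Among all tested genes below an average log2 CPM of 0, 4.22% were called with a negative fold change, and at 0 or more 1.60% were. The called members were thus found on both sides of this level.

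**Figure D2:**
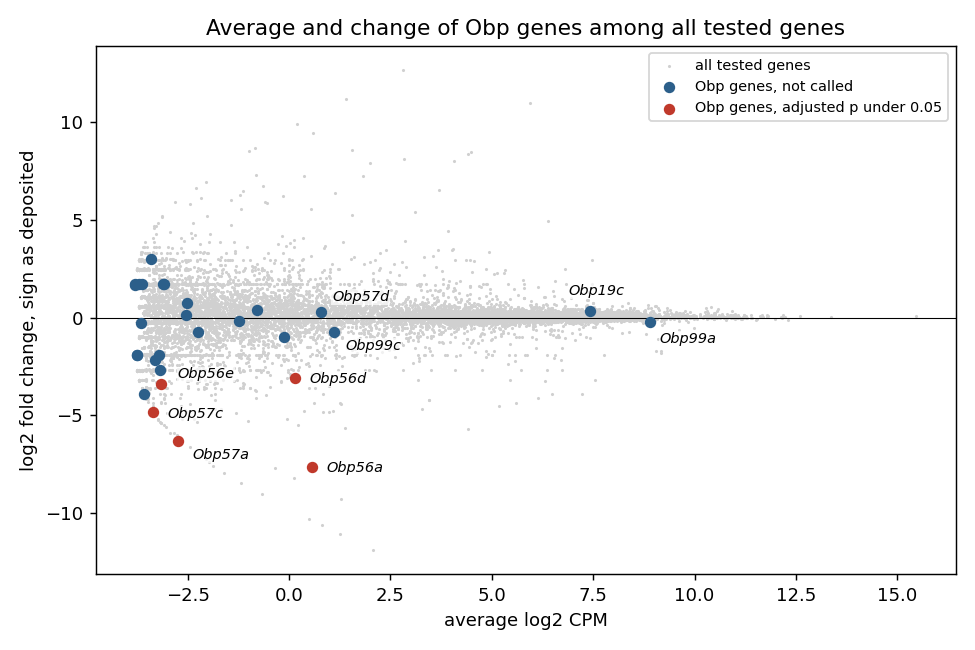
Average log2 CPM (horizontal axis) against log2 fold change (vertical axis, sign as deposited) for all 13080 tested genes in grey, with the 29 tested Obp genes in blue and the 5 called ones in red. Obp99a and Obp19c lie far to the right near a change of 0, while Obp56a and Obp56d lie below 0 at an average near 1 CPM.

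The Obp56 cluster held 3 of the 5 calls. Its members Obp56a to Obp56f follow each other in the Ensembl annotation of the BDGP6 assembly, on chromosome arm 2R, and Obp56h lies further along the same arm. The authors' deposited table listed Obp56a at a log2 change of -7.63 (SE 1.17, adjusted p = 7.1e-09) at an average of 1.49 CPM. Obp56d, which is expressed in the antenna and the mouthparts, changed by -3.08 log2 units, per the authors' deposited table (SE 0.32, adjusted p = 5.0e-19) at an average of 1.12 CPM. The averages of these genes were close. Obp56d had the smaller fitted change of the pair and the lower adjusted p, and whether the changes differ was not tested. Obp56e, whose product has been found in seminal fluid, was called at -3.39, per the authors' deposited table (SE 0.96, adjusted p = 0.011), at a much lower average of 0.113 CPM. An annotated antisense RNA overlaps Obp56e on the opposite strand and was not analysed here.

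The remaining Obp56 genes were at the bottom of the range. Obp56c and Obp56f were both positive and not called in the authors' deposited table, with log2 fold changes of 1.68 and 1.69 and intervals from -1.40 to 4.76 and from -1.40 to 4.78. The row of Obp56c was shared, in fold change, average and likelihood ratio, by 58 other genes, and that of Obp56f by 51 other genes. Such a row holds little that belongs to the gene itself. Obp56b and Obp56h, a gene known for its effect on mating behaviour, had a likelihood ratio of 0 and hence no change to report, at average log2 CPM of -3.74 and -2.95 in the authors' deposited table. Within the cluster, therefore, called and uncalled genes stood side by side: Obp56a is followed by Obp56b and Obp56c, then by Obp56d and Obp56e.

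In the Obp57 cluster the negative values lay together in the gene order. Obp57c, Obp57b and Obp57a are direct neighbours on the same strand of arm 2R, and all had negative fold changes. Per the authors' deposited table, Obp57a was called at -6.29 (SE 0.96, adjusted p = 4.9e-09) and Obp57c at -4.83 (SE 1.21, adjusted p = 0.0024). Between them, Obp57b was listed at -3.88 log2 units by the authors' deposited table (SE 1.37), with an unadjusted p of 0.0047 and an adjusted p of 0.090, and was not called. Its interval, from -6.58 to -1.19, was the only one among the uncalled members that did not hold 0. The averages of these neighbours were low, at 0.151 CPM for Obp57a, 0.098 CPM for Obp57c and 0.084 CPM for Obp57b in the authors' deposited table.

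Obp57d and Obp57e lie a short way along the arm. They act in taste perception of the fatty acids of noni fruit and differ between *Drosophila* species in host choice. Neither had a readable change of its own. The authors' deposited table put Obp57d at 0.27 log2 units (SE 0.54, adjusted p = 1), with an average of 1.74 CPM, the highest average of the cluster. That value cannot be assigned to Obp57d alone. The cuticle protein gene Cpr57A overlaps it on the same strand in the annotation, and its row in the authors' deposited table has the same average and a fold change that differs by 6e-07. Obp57e had a likelihood ratio of 0, at an average of 0.101 CPM in the authors' deposited table.

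Called genes are picked by their change, so their place among genes of similar average is only a description and lends the calls no support. Of 580 tested genes within 0.25 of the average log2 CPM of Obp57a, 1 had a more negative fold change in the authors' deposited table. For Obp57c this was 5 of 848 genes, and for Obp56a 2 of 285. Obp56d was passed by 5 of 344 such genes and Obp56e by 30 of 748. The uncalled Obp57b was passed by 13 of 1199. At these averages 1 group may hold few reads or none, so the fitted fold changes are no bounds.

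Some genes beside the clusters were called. Over all tested genes 5.10% were called and 11.4% had an unadjusted p under 0.05. Counts around Obp56a to Obp56f, around Obp56h and beside Obp83b lay above these shares. Around the Obp99 cluster only the count of unadjusted p did. Each set is small, and whether it differs from other genes was not tested. Around Obp56a to Obp56f, 1 of the 10 nearest tested genes, 5 on either side, was called in the authors' deposited table and 2 had an unadjusted p under 0.05. The called gene was CG34198, at a log2 fold change of -1.60 (adjusted p = 0.038). Around Obp57c to Obp57a, 0 of 10 were called by the likelihood ratio test and 0 had an unadjusted p under 0.05, and their log2 fold changes ran from -1.90 to 1.69 with a median of 0.29. Around Obp57e and Obp57d, where some of the same genes count again, 0 of 11 were called and 0 had such a p. Beside Obp83b, itself not called, 2 of 10 were called in the authors' deposited table, CG1213 at 1.18 and CG1208 at -1.49. Around Obp56h, 1 of 11 was called, again CG34198, and 3 had an unadjusted p under 0.05. Around and between the Obp99 genes 0 of 16 were called and 2 had such a p. Near the Obp19 genes, the Obp50 genes and Obp83cd to Obp83g, 0 of 10 were called each time and 0 had such a p. Near Obp59a and the Obp58 genes these counts were 0 and 1 of 10.

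The Obp99 cluster differed in level and held no call. Obp99a, Obp99c, Obp99d and Obp99b lie in this order on arm 3R with a few other genes between them. Obp99a had the highest average of the family, at 482.2 CPM in the authors' deposited table, higher than 97.7% of all tested genes. Its log2 change, per the authors' deposited table, was -0.21 (SE 0.45, interval -1.09 to 0.67, adjusted p = 1). Obp99c was at -0.74 (SE 0.73) with an average of 2.17 CPM, and Obp99b, known for sex-dependent expression in the fat body of the head, at 0.41 (SE 0.42) with an average of 0.577 CPM, both from the authors' deposited table. Obp99d had a likelihood ratio of 0 and an average of 0.102 CPM in the authors' deposited table. No tested member of this cluster had an unadjusted p under 0.05. With 3 tested members, 0 calls is near the 5.10% called over all tested genes. The intervals of the 3 tested members all reach past a 2-fold change, so changes of that size were not excluded.

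Compared per length, the clusters were set apart by single genes more than by a common level. On the scale of average log2 CPM per kilobase of coding length, the median level was 1.32 for the Obp99 cluster with 4 members and -0.78 for the Obp19 cluster with 4. It was -1.81 for the Obp56 cluster with 7, -2.02 for the Obp57 cluster with 5, -2.05 for the Obp83 cluster with 4 and -2.13 for the Obp58 cluster with 3. The last 4 medians lie close together and the order among the Obp56, Obp57 and Obp58 clusters depends on the scaling by length. The Obp57 and Obp58 medians are the values of Obp57e and Obp58c, which had a likelihood ratio of 0. Obp56c has the lowest average of any gene, so its level per kilobase is set by its coding length. Near that average, levels per kilobase mostly order genes by length. Within the Obp99 cluster the level per kilobase ran from -2.02 for Obp99d to 10.14 for Obp99a, and within the Obp19 cluster from -2.44 for Obp19a to 8.36 for Obp19c. The range was narrower in the Obp56 cluster, from -3.35 for Obp56c to 1.83 for Obp56a, and in the Obp57 cluster, from -2.34 for Obp57b to -1.75 for Obp57a, without the row of Obp57d at 2.10, which it shares with Cpr57A. The plot of level and change by cluster shows that the genes of highest level in the Obp99 and Obp19 clusters were not called, while the genes of highest level in the Obp56 cluster, Obp56a and Obp56d, were.

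**Figure D3:**
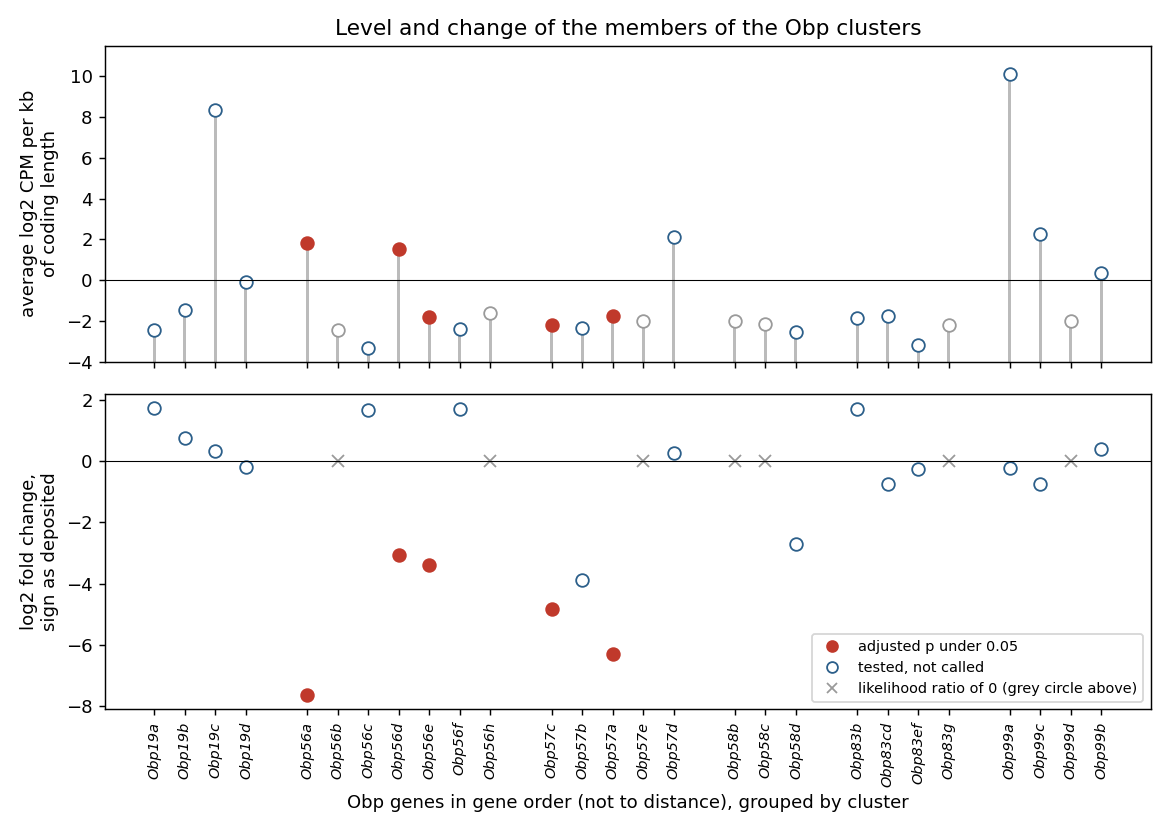
Upper panel: average log2 CPM per kilobase of coding length (vertical axis) of the members of 6 Obp clusters in gene order; lower panel: their log2 fold change (vertical axis, sign as deposited). Filled red points are called, open blue points are tested and not called, and grey symbols have a likelihood ratio of 0; the red points lie in the Obp56 and Obp57 clusters alone.

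The median log2 fold change of the tested members in the authors' deposited table was -3.08 for the Obp56 cluster (5 tested), -4.36 for the Obp57 cluster (4 tested, with the row shared by Obp57d and Cpr57A) and -0.21 for the Obp99 cluster (3 tested). It was 0.53 for the Obp19 cluster (4 tested) and -0.26 for the Obp83 cluster (3 tested), and the 1 tested member of the Obp58 cluster, Obp58d, stood at -2.70 (SE 1.52, adjusted p = 0.61). Whether clusters differ from each other was not tested, because neighbouring genes are not replicates. In the Obp19 cluster on the X chromosome, Obp19c had the second highest average of the family, at 172.6 CPM in the authors' deposited table, higher than 91.0% of tested genes. It also had the narrowest interval: the authors' deposited table put its log2 change at 0.32 with an interval from -0.09 to 0.72, within a 2-fold change. Obp19d, a gene of the olfactory and taste organs, was the only other member with an interval within a 2-fold change, at -0.19 per the authors' deposited table (SE 0.41). Per the authors' deposited table, Obp19b was at 0.75 (SE 0.65) and Obp19a at 1.73 (SE 1.60), and neither had an unadjusted p under 0.05.

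Outside the Obp56 and Obp57 clusters, 0 of 20 tested members were called by the authors' likelihood ratio test, and 0 had an unadjusted p under 0.05. The 0 calls follow from leaving out the clusters that hold all of them. Over all tested genes the shares were 5.10% and 11.4%, so few would stand among 20 genes in any case. The log2 fold changes of the 20 members ran from -2.70 to 2.97. The positive end of this range was Obp69a, a gene linked to social behaviour and pheromone response, at 2.97 per the authors' deposited table (SE 1.58, adjusted p = 0.56). Obp84a followed at the negative end, at -2.17 (SE 1.19, adjusted p = 0.60) in the authors' deposited table. Obp44a, known for expression in glia of the brain, was at -1.02 (SE 0.68) with an average of 0.922 CPM in the authors' deposited table. It overlaps Pabp2, a gene of the opposite strand with an average log2 CPM of 8.15. Whether the authors counted reads by strand is not given in the sources used here, so reads of such pairs may not be told apart. Obp69a and Obp51a likewise overlap genes of the opposite strand with higher average log2 CPM, CG32104 at 5.08 and hbs at 5.20 in the authors' deposited table. The antennal genes Obp28a, Obp83b and lush had low averages, close to the family median. This did not hold for all genes tied above to olfactory organs. Obp56d had an average log2 CPM of 0.16 and Obp19d one of -1.23 in the authors' deposited table. Obp28a, the antennal gene tied to floral odours, was at -1.90 with an average of 0.108 CPM in the authors' deposited table. Obp83b was at 1.70 with 0.115 CPM. The antennal gene lush, which encodes the binding protein for the male pheromone cis-vaccenyl acetate and is an Obp gene under another name, was at 1.69 with an average log2 CPM of -3.40 in the authors' deposited table and was not called.

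Many of the uncalled members repeat the same values. Obp49a, Obp51a, Obp56c, Obp56f and Obp19a all lay between 1.68 and 1.73 log2 units in the authors' deposited table, with likelihood ratios from 1.14 to 1.17. In all, 517 tested genes of the authors' deposited table had a log2 change between 1.5 and 2 with a likelihood ratio under 2, at a median average log2 CPM of -3.63. On the negative side Obp28a, Obp50b and Obp50c were at -1.90 in the authors' deposited table, among 410 genes between -2 and -1.5 with a likelihood ratio under 2. Obp50b and Obp50c overlap on the same strand and have identical rows, so they are not separate results. None of these members passed the test, and the median size of change in the family, 1.69, is the value of Obp49a.

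A likelihood ratio of 0 with a fold change of 0 was listed for 14 members, or 32.6%, against 12.0% of all genes in the authors' deposited table. They were Obp8a, Obp46a, Obp47b, Obp56b, Obp56h, Obp57e, Obp58b, Obp58c, Obp59a, Obp73a, Obp83g, Obp85a, Obp93a and Obp99d. Their average log2 CPM ran from -3.74 to -2.74 in the authors' deposited table, apart from Obp59a at 0.12. A further 8 Obp genes of the annotation, Obp22a, Obp47a, Obp50a, Obp50d, Obp50e, Obp56g, Obp56i and Obp83a, were not analysed here.

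Other genes of chemical sensing held calls of both signs. Of 8 tested coreceptors and partners, 2 were called in the authors' deposited table and 4 had an unadjusted p under 0.05, both larger shares than the 5.10% and 11.4% over all tested genes. In these small lists, chosen with earlier results of these data known, 1 gene moves the share by much. Snmp2, a membrane protein of the CD36 family expressed in support cells of the antenna, was at -3.36 log2 units (SE 0.75, adjusted p = 0.00037) at an average log2 CPM of -2.91. The pheromone-sensing channel gene ppk29 was at 0.74 (SE 0.22, adjusted p = 0.023), again from the authors' deposited table, and the sugar receptor gene Gr64f at 1.36 (SE 0.59, adjusted p = 0.29) was not called. Ir25a, a coreceptor of the ionotropic receptors, was at 1.29 in the authors' deposited table (SE 0.52, adjusted p = 0.21) and was not called either. Orco, the coreceptor that odorant receptors need, had a likelihood ratio of 0 at an average log2 CPM of -3.68 in the authors' deposited table, close to the lowest average of any gene. Of the other secreted proteins of antenna and pheromone organs, 1 of 5 tested was called, and unadjusted p were under 0.05 for 3. The called gene was PebIII, a gene of the ejaculatory bulb and a relative of insect chemosensory proteins, at -1.78 per the authors' deposited table (SE 0.32, adjusted p = 1.6e-06). The antennal gene a10 of the same list was at -2.07 (SE 0.91, adjusted p = 0.30), and Est-6, an esterase of the antenna and the ejaculatory duct, was at 0.27 (SE 0.41), per the authors' deposited table. Its relative Jhedup was at -0.21 (SE 1.47) in the authors' deposited table. In the CheA and CheB families, related to lipid-binding proteins of taste bristles, 10 of 14 listed genes had a likelihood ratio of 0, and 0 of the 4 tested were called, with 0 at an unadjusted p under 0.05. CheB42c stood apart by its average log2 CPM of 4.21, with a log2 change of 0.33 per the authors' deposited table (SE 0.26), and CheB38c followed at an average log2 CPM of -2.22 with a change of 0.90 (SE 1.05).

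Marker lists of other tissues held calls in both directions. The lists were chosen with earlier results of these data known, so their counts are only a description and lend no support. Over all tested genes 5.10% were called, 2.48% negative and 2.61% positive. Of 7 protease genes of the spermatheca, the sperm storage organ, 6 were called and all 7 were negative, between -9.03 and -3.15 log2 units in the authors' deposited table, the median being -7.58. Their average log2 CPM, from -2.67 to -0.67, lay above those of Obp57a, Obp57c and Obp56e and below those of Obp56a and Obp56d. Among markers of the male accessory gland and seminal fluid, 1 of 13 tested was called in the authors' deposited table, antr at 2.05. That count is near the share over all tested genes. The median over the 13, 1.69, is the value of Acp98AB, whose row is identical to that of Obp56f and to those of many other genes at the lowest averages. Of the midgut markers, 14 of 15 were called, all positive, and of the fat body markers, 2 of 7, both positive. The uncalled midgut marker, Npc2d, was negative, at -0.66. The fat body marker of highest average log2 CPM, Rfabg at 7.85, was at 0.14 and not called. The part of these tissues in the Obp values was not tested, and with pooled material more cells of a type and more RNA per cell cannot be told apart.

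**Figure D4:**
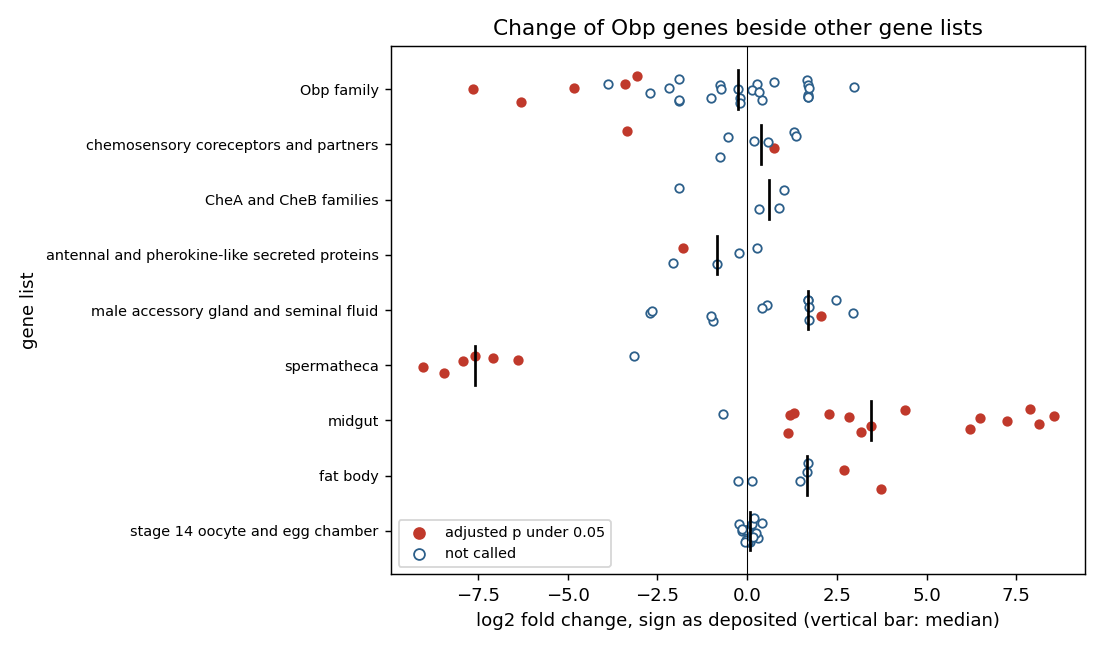
Log2 fold change (horizontal axis, sign as deposited) of the tested genes of 9 gene lists, with red points for an adjusted p under 0.05, open blue points for the rest and a vertical bar at the median; points are spread vertically within a list for visibility. The 5 red points of the Obp family lie on the same side as the spermatheca markers, opposite to the called midgut markers. The lists were chosen with earlier results of these data known.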

How the data were processed

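RNA from 6 samples was sequenced. Per the labels it was polyA selected, yet their protocol lists a kit for stranded libraries of total RNA. FastQC, Bowtie and TopHat are named in the submitters' processing notes. A read counter and build were not given in the sources used here. Log2 fold changes, average log2 CPM, likelihood ratio scores and p-values were deposited by the authors, and the title of their table names edgeR's likelihood ratio test (glmLRT). The deposited p-values differed by at most 6.4e-15 from the chi-square tail of the score with 1 degree of freedom, and the adjusted ones by at most 3.6e-15 from a Benjamini-Hochberg adjustment over all 14862 genes. A count test had been planned only for a count table.

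Computed here were the implied SE (where the score was above 0.0001), intervals of 1.96 SE, medians, and levels per kilobase of the longest coding sequence. Coding lengths, overlaps and gene order came from the Ensembl annotation of BDGP6, in which all 43 members were matched by symbol, and no coordinates are printed because the authors' build is unknown. Clusters of 3 or more members were taken by the number in the symbol. Some Obp57 and Obp99 symbols are synonyms of a neighbour in the RefSeq gene table (Release 6 plus ISO1 MT assembly), so a row could belong to that neighbour under an older annotation. Names missing from the table were looked up as synonyms there.

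The members, gene lists and tests were chosen with earlier results of these data known. Named are all called members, all members of the Obp56, Obp57 and Obp99 clusters, those of highest average, and called or high-average genes of the chemosensory lists; tissue markers are given as counts. Further genes were named after their values were seen. The adjustment and implied SE were tested on simulated data. Since separate crosses are not documented, the authors' p-values reflect the spread among these samples, which may be technical. The work used matplotlib 3.10.9, scipy 1.17.1, numpy 2.4.6 and pandas 2.3.3 under Python 3.11.15.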

Additional observations from a re-analysis of the deposited data

Results flagged for a closer look

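Obp59a, a gene needed for sensing humidity, had an average log2 CPM of 0.12 in the authors' deposited table although its likelihood ratio and fold change were both 0. It drew attention because the average lists reads for a gene that the comparison gives no change. The other 13 members with a likelihood ratio of 0 had averages of -2.74 or less in the authors' deposited table. Outside the family, Ir8a and Acp36DE also had a likelihood ratio of 0, at average log2 CPM of -2.02 and -1.77. Which libraries enter the average is not stated, and the source of the reads of Obp59a was not tested. The average of a gene need therefore not be its level in the 6 samples.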

How the results depend on the processing

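When genes averaging under 0 log2 CPM were removed ahead of adjustment, 2 members were called negative in place of 5, Obp56a and Obp56d, with adjusted p of 6.7e-09 and 3.8e-19; the other 3 are removed by that filter. The count was 4 at an adjusted p of 0.01, without Obp56e, and 5 when adjusted over genes with a likelihood ratio above 0 or with lush added. No alternative called a positive member. Adjusted over genes with a likelihood ratio above 0, Obp57b had an adjusted p of 0.079. Over the family, the median log2 change was -0.48 over members of average log2 CPM of 0 or more and -0.23 with lush added. Without division by coding length, the Obp56 cluster moved from rank 3 to rank 4 by median level, the Obp57 cluster from rank 4 to rank 6 and the Obp58 cluster from rank 6 to rank 3, while the Obp99, Obp19 and Obp83 clusters kept ranks 1, 2 and 5. Clusters taken by adjacency, with at most 5 other genes between members, held the same numbers of calls in the Obp56, Obp57, Obp99 and Obp19 clusters. No replicate could be left out, and the depth is unknown. No paired analysis was possible because only a comparison per gene, without sample values, was analysed.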
